A study of Drosophila melanogaster with 27 samples.

Results

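Mitochondria make ATP with the respiratory chain, 5 enzyme complexes whose subunits are encoded mostly in the nucleus. Examined here were the 88 protein-coding genes, among 13922 on the nuclear chromosome arms 2L, 2R, 3L, 3R, X and 4 of Drosophila melanogaster, whose RefSeq symbol starts with ND- (complex I, 40 genes), Sdh (complex II, 8 genes), UQCR- (complex III, 9 genes), COX (complex IV, 16 genes) or ATPsyn (complex V, 15 genes). The rule reads the symbols alone. The study compared genome-wide monomethylation of histone H4 lysine 20 (H4K20me1) between wild-type wing discs and discs with mutations in Set8 or in the histone itself, by CUT&RUN, in which an antibody directs a nuclease to the chromatin it binds and the cut fragments are sequenced. The values below come from a single list of H4K20me1 peaks for Oregon-R, a wild-type strain, made from antibody libraries (n = 3) and libraries without primary antibody (n = 3). Each library held 20 wing imaginal discs, the larval epithelium that gives rise to the adult wing, pooled from female wandering larvae of instar 3 raised at 25 °C. The 21 libraries of the other 8 groups were not analysed here.

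Electrons from NADH enter at complex I and those from succinate at complex II, which is also an enzyme of the tricarboxylic acid cycle. They pass through complex III to complex IV, which reduces oxygen, and complex V uses the proton gradient that complexes I, III and IV build to make ATP. In flies many subunits have a second gene copy, named with an added L, and many of these copies are expressed mainly in the testis. H4K20me1 is placed by Set8, and in flies it is found over the bodies of many transcribed genes.

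The list gives where each peak starts and ends, and no height, p-value or value per library, so depth and replicate spread are unknown and no difference below was tested. Signal too weak for the authors' threshold would leave a gene without a peak. Since whole discs were profiled, a mark in few cells and a weak mark in all cells cannot be told apart. Of 9 genes fixed as markers of the wing disc, 6 had a peak, and vg, wg and dpp had none. Coverage of the 6 ran from 0.405% in rn and 5.95% in en to 72.2% in ci. All 9 are longer than 2500 bp, and of all protein-coding genes of 2500 bp or more 53.0% had a peak. Of 10 markers of cell types that can adhere to a dissected disc (neuron, muscle, hemocyte, fat body), the neuronal gene elav (26.1% covered) and the muscle gene Mef2 (3.53%) had a peak. Of 5 testis markers, twe had a peak (6.09%) and the other 4 had none. Over protein-coding genes of all lengths the share with a peak was 38.3%.

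Peaks lay over 51 of the 88 respiratory chain genes (58.0%, 95% Wilson interval 47.5 to 67.7), against 38.3% of all protein-coding genes. A gene counted as having a peak when at least 1 bp of its body, from annotated start to end, lay under one. Wilson intervals here cover the choice of genes only and not the spread between libraries. At least 50% of the body was covered in 30 of the 88 (34.1%), against 18.3% of all protein-coding genes. The body was covered completely in 15 of the 88, against 636 of all 13922 protein-coding genes (4.57%). The excess over the background depended on how a peak was assigned. Only 23 of the 88 genes (26.1%) held the midpoint of a peak, against 27.9% of all protein-coding genes, so by that measure the set showed no excess. The 88 genes are shorter, with a median of 1097 bp against 2163 bp for all protein-coding genes. A short body is easier to cover and less likely to hold a midpoint. The shares for 50% coverage, complete coverage and midpoints were not matched for length.

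L paralogues and the other genes of the set stood apart. Of 24 genes with an L ending whose parent gene is in the annotation, 4 had a peak (16.7%, 95% Wilson interval 6.68 to 35.9), and none held a peak midpoint. Of the other 64 genes, 47 had a peak (73.4%, 95% Wilson interval 61.5 to 82.7), and 23 held a peak midpoint (35.9%). In every complex the share was lower in the paralogues, although complexes II and III have only 3 L paralogues each. The Wilson intervals of paralogues and other genes overlapped in complexes I to IV and stood apart in complex V alone. Without the paralogues, the share with a peak ran from 62.5% in complex IV to 100% in complex V, and the Wilson intervals of all 5 complexes overlapped.

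**Figure D1:**
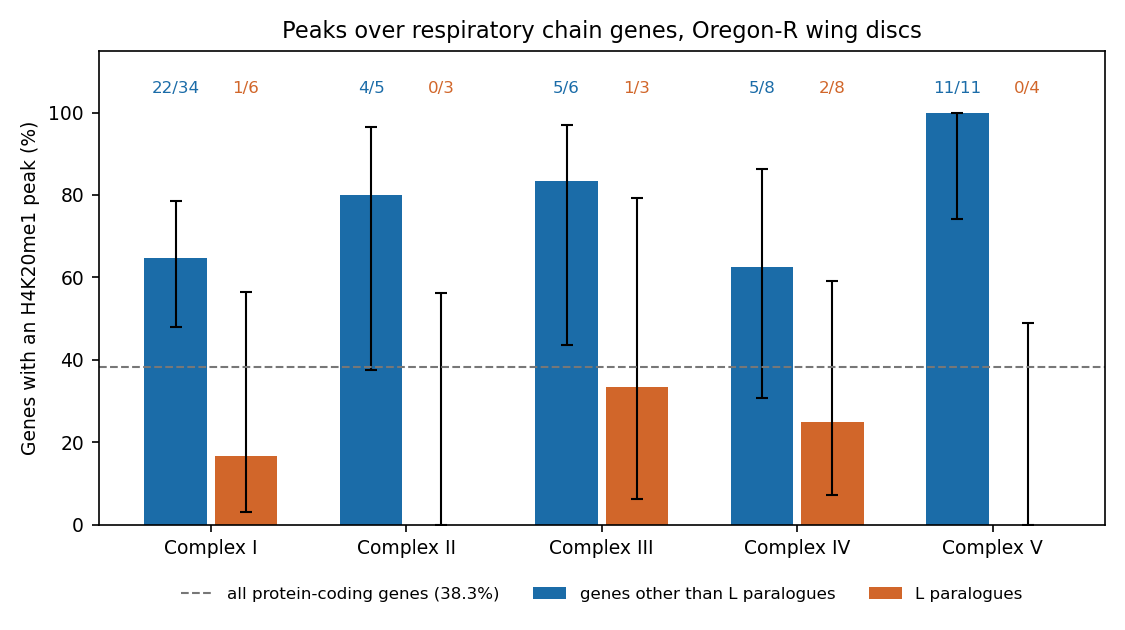
Share of genes with an H4K20me1 peak (%, vertical axis) in complexes I to V, for L paralogues (orange) and all other genes of the complex (blue). Bars are shares of genes, lines are 95% Wilson intervals, fractions above the bars are genes with a peak out of genes in the group, and the dashed line is the share of all protein-coding genes. In each complex the blue bar stands above the dashed line and the orange bar below it.

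In complex V, the ATP synthase, all 11 genes other than paralogues had a peak (11 of 11, 95% Wilson interval 74.1 to 100%), and 9 of them were covered over at least 50% of the body. The median covered share of these 11 was 88.7%, against 46.9% of all protein-coding genes with a peak, a comparison not matched for length. Only 4 of the 11 held the midpoint of a peak (36.4%), a share below those of complexes II (60%), III (66.7%) and IV (50%) by the same rule, so the order of the complexes turns with how a peak is assigned. ATPsyngamma, which encodes the rotating shaft, ATPsynO, a subunit of the peripheral stalk, and the membrane-sector genes ATPsynE and ATPsynF were covered completely. The peak over ATPsynF was 21.6 kb wide, also lay over pio, CG13587, CG3548 and CG3565, and had its midpoint in pio. ATPsynbeta, the gene of the catalytic subunit, lies on chromosome 4 (1031484 to 1034917) and was covered to 73.3%. ATPsynC, which encodes the proton-carrying ring, was covered to 71.9% by a peak of 2650 bp that reached no other gene. The least covered were ATPsyndelta, at 15.8%, and the stalk gene ATPsynB, at 12.2%, the latter by a single peak of 150 bp, the narrowest width in the list. Its 4 paralogues, ATPsynbetaL, ATPsynCF6L, ATPsynGL and ATPsynepsilonL, were all at 0% (0 of 4, 95% Wilson interval 0 to 49.0%). The subunit gene sun, which lies outside the symbol rule, had no peak either.

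Complex I, the NADH dehydrogenase, was divided. Peaks lay over 22 of its 34 genes other than paralogues (64.7%, 95% Wilson interval 47.9 to 78.5). Its catalytic core includes 7 nuclear-encoded subunits, some of which carry the flavin and the iron-sulphur clusters. This group was picked out after the values were seen. All 7 core genes had a peak. ND-20 (X 15985473 to 15986808) and ND-23 (3R 15836048 to 15837117) were covered completely, ND-75 to 74.1%, ND-49 to 70.7% and ND-24 to 56.9%. Coverage was lower in ND-51, the gene of the flavin-binding subunit, at 29.2%, and in ND-30, at 10.6%. Among the other 27 genes, which encode accessory subunits, 15 had a peak (55.6%, 95% Wilson interval 37.3 to 72.4). The interval of the core genes, 64.6 to 100%, overlapped that of the accessory ones, and the core genes are longer (median 1421 bp against 1042 bp).

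The accessory genes of complex I spanned the whole range. ND-B17.2, ND-B14 and ND-B12 were covered completely, by peaks of 5.9, 11.8 and 11.8 kb that also lay over 3 to 4 other genes each. ND-ACP, which encodes the mitochondrial acyl carrier protein, was covered to 98.2% by a 1.7 kb peak that reached no other gene. At the other end, ND-MLRQ was covered to 2.27%, by a peak of 150 bp. Its mammalian counterpart is now counted as a complex IV subunit. ND-39 (5003 bp) and ND-ASHI (1857 bp) were the longest genes without a peak, although ND-ASHI overlaps the fumarase gene Fum1, which was covered to 57.0%. The nearest peak lay 562 bp from ND-ASHI and 1067 bp from ND-39, but 106933 bp from ND-AGGG, which has no other protein-coding gene within 10 kb. ND-15 is annotated with a body of 41305 bp that contains or overlaps 11 other genes. Its 3 peaks fell almost wholly in these genes, and only 98 of the 5950 covered bp lay in sequence of ND-15 alone.

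In complex II, succinate dehydrogenase, each of the 4 subunit genes had a peak, but none was covered over more than 31.2%. The median over all protein-coding genes with a peak was 46.9%. SdhC, a membrane anchor gene, was covered to 31.2%, and SdhA, the gene of the catalytic flavoprotein, to 29.2%. SdhD, the second anchor gene, reached 26.8%, and SdhB, the gene of the iron-sulphur subunit, 9.70%. Peaks over SdhA, SdhB and SdhC lay within the gene and reached no other gene. They measured 1050 and 150 bp in SdhA, 150 bp in SdhB and 300 bp in SdhC. The peak over SdhD was 2900 bp wide and reached udt, in which its midpoint lay. The 5 peaks of complex II had a median width of 300 bp, and the 11 peaks of complex V one of 3000 bp, with ranges of 150 to 2900 bp and 150 to 21600 bp that overlap. Sdhaf3, which encodes an assembly factor and not a subunit, had no peak, and the nearest was 11411 bp away. The 3 paralogues, SdhAL, SdhBL and SdhCL, had none either, with the nearest peaks 73094, 2396 and 93445 bp away.

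In complex III, the cytochrome bc1 complex, 5 of 6 genes other than paralogues had a peak. UQCR-C2, the gene of a core protein, was covered completely by a peak of 3.2 kb shared with the proteasome gene Rpn12 and with Syx8. UQCR-6.4 was covered completely by a 15.25 kb peak over 7 further genes, and the midpoint of that peak lay in UQCR-6.4. UQCR-C1, the partner of UQCR-C2 in the core, was covered to only 27.2%, UQCR-14 to 19.7% and UQCR-Q to 14.7%. UQCR-14 lies wholly within CG32576, so its peak cannot be assigned to either. UQCR-11 (5463 bp) had no peak, and the nearest was 5709 bp away.

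Complex IV, cytochrome c oxidase, had the lowest share, 5 of 8 genes other than paralogues (62.5%, 95% Wilson interval 30.6 to 86.3). COX4 was covered completely, COX5B to 99.9%, COX6B to 62.2%, COX7B to 46.4% and COX8 to 24.1%. No peak lay in COX7C (1714 bp), COX7A (1100 bp) or COX5A (941 bp). The nearest peak was 152 bp from COX5A and 753 bp from COX7C, but 3258 bp from COX7A. All 8 genes encode small subunits that surround a catalytic core encoded in mitochondrial DNA. That DNA lies outside the chromosome arms examined here.

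**Figure D2:**
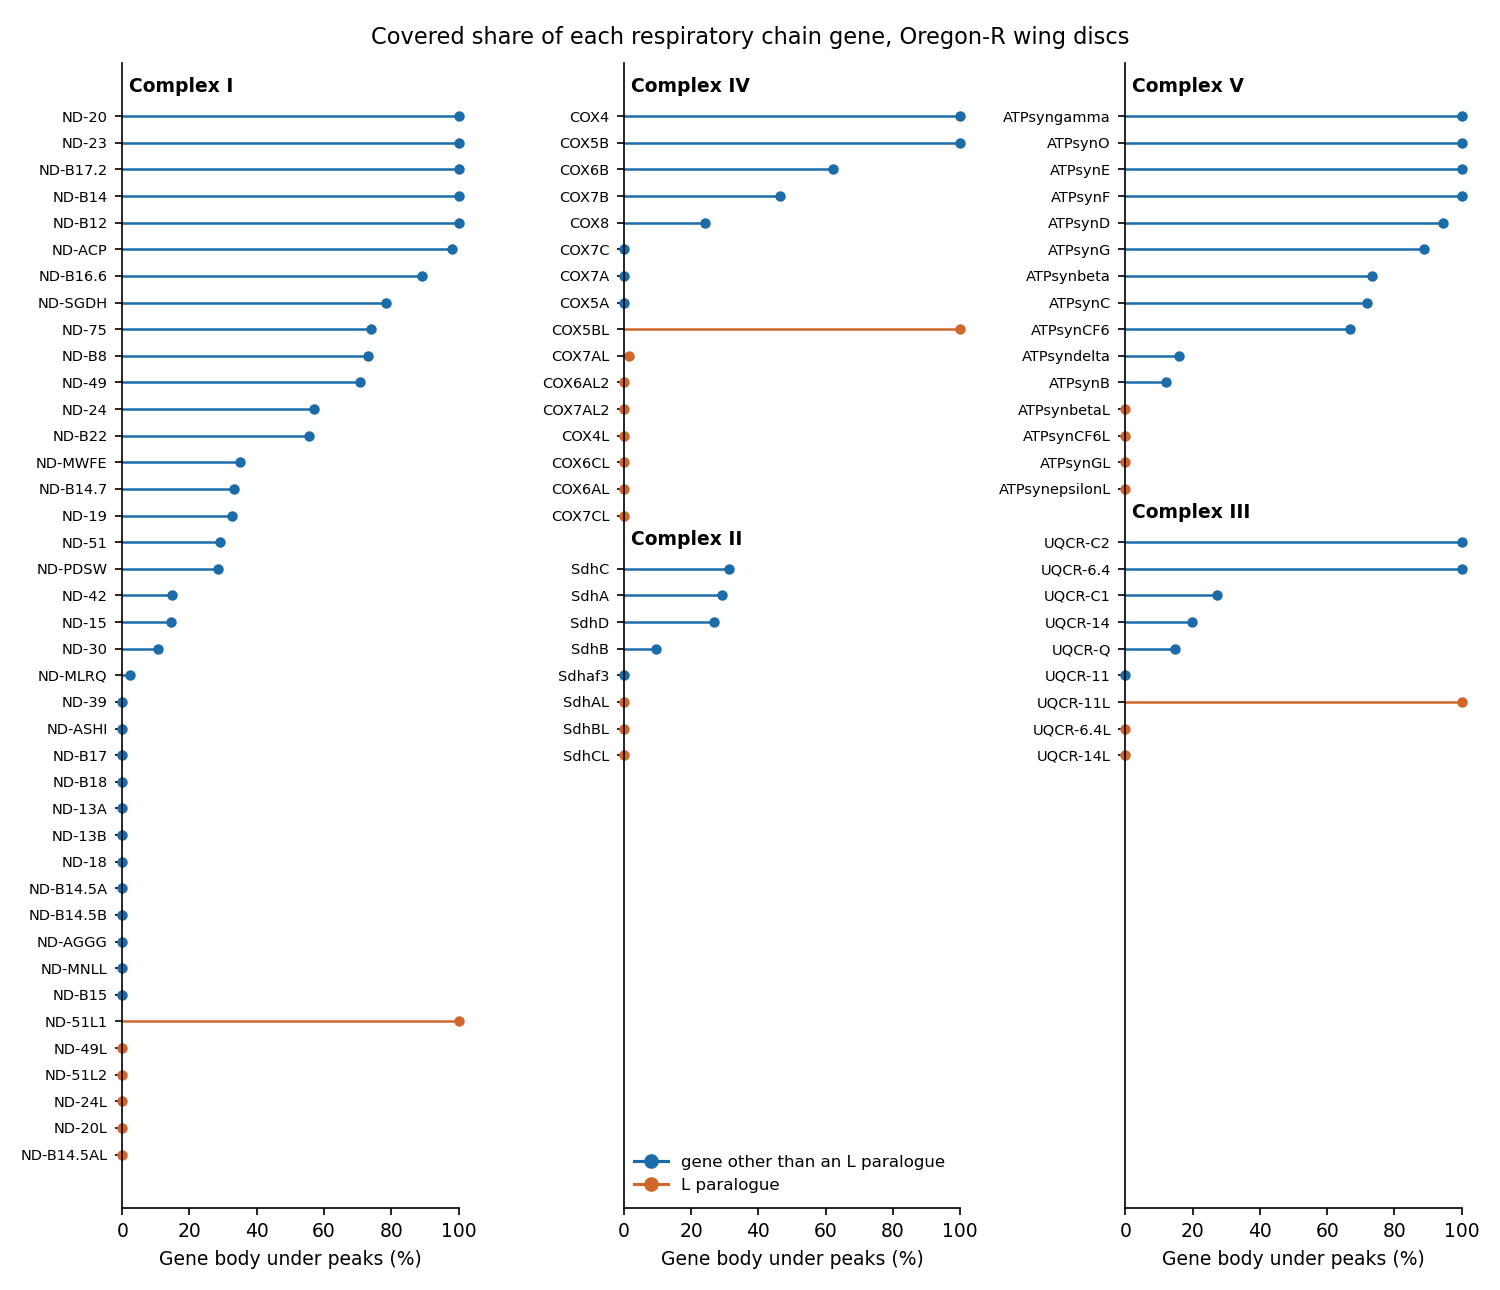
Share of the gene body under H4K20me1 peaks (%, horizontal axis) for each of the 88 genes, by complex. Each point is 1 gene, blue for genes other than L paralogues and orange for L paralogues. Genes at 100% are found in complexes I, III, IV and V, complex II genes stay at or below 31.2%, and 20 of 24 orange points are at 0.

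Gene by gene, most paralogues lacked the mark that their parent carried. The 24 paralogues have 21 parent genes, of which 15 had a peak (71.4%, 95% Wilson interval 50 to 86.2). In 15 of 24 pairs the parent alone had a peak, in 2 pairs both genes, in 2 the paralogue alone, and in 5 neither. The difference was widest for ND-20, COX4 and UQCR-6.4, which were covered completely while ND-20L, COX4L and UQCR-6.4L had no peak. It was as wide for levy, the gene of the parent subunit COX6A, covered completely, against COX6AL and COX6AL2 at 0%. ATPsynG (88.7%), ATPsynbeta (73.3%), ND-49 (70.7%), ATPsynCF6 (66.7%) and ND-24 (56.9%) were also covered while their paralogues were at 0%. The remaining pairs with a marked parent alone were those of SdhA, SdhB, SdhC and UQCR-14 and that of ND-51 with ND-51L2, in which the parent was covered over 31.2% or less. In the pairs of ND-B14.5A, COX7C, cype with COX6CL, and sun with ATPsynepsilonL, neither gene had a peak. The same held for COX7A with COX7AL2.

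**Figure D3:**
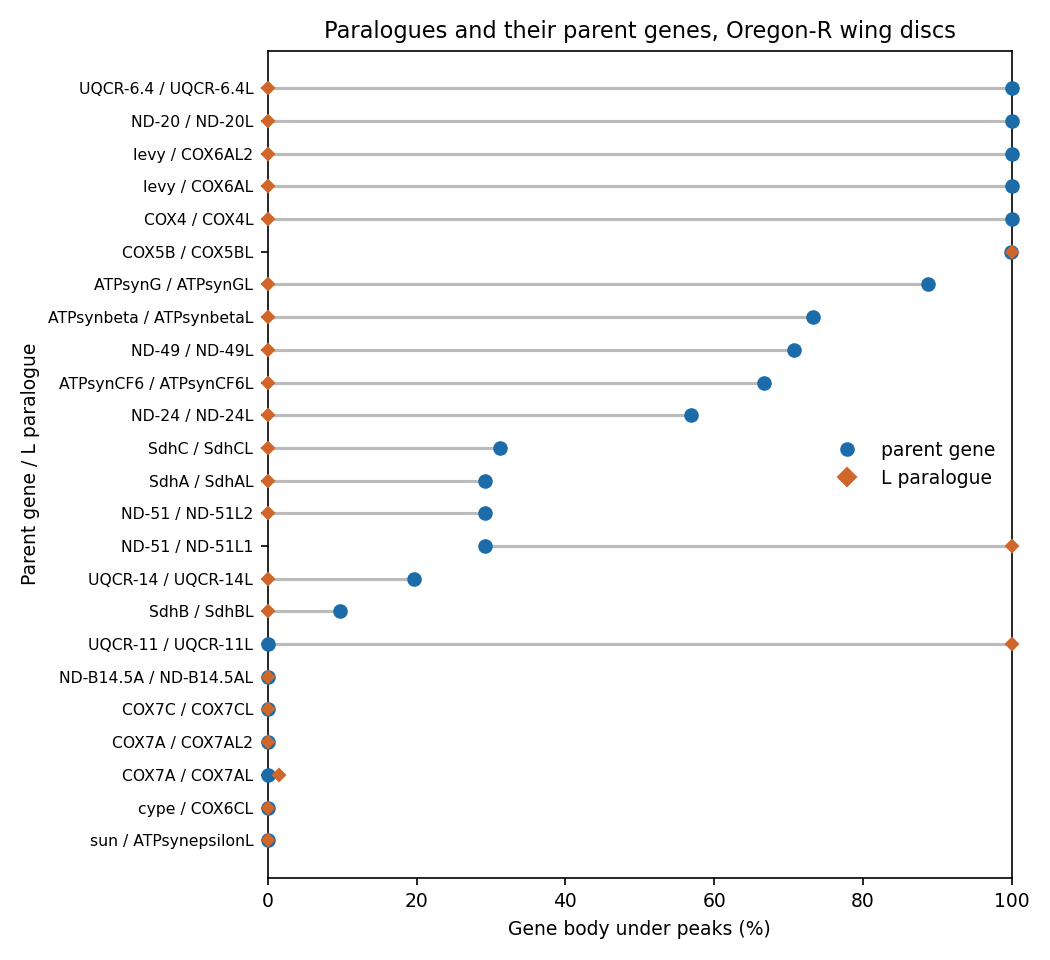
Share of the gene body under H4K20me1 peaks (%, horizontal axis) for each paralogue (orange diamond) and its parent gene (blue circle), 1 pair per line, with a grey line joining them. Pairs are ordered by the parent's value. In 15 pairs the parent lies above 0 and the paralogue at 0, and COX5BL, ND-51L1, UQCR-11L and COX7AL are the paralogues above 0.

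The 4 paralogues with a peak shared it with a neighbouring or enclosing gene. ND-51L1 lies wholly within Smurf, the gene of a ubiquitin ligase of the Dpp pathway, under a 10.5 kb peak (2R 17593151 to 17603650) that covered 90.0% of Smurf and also lay over CG43920 and CG42649. UQCR-11L (443 bp) lies wholly within Acsl, which encodes an acyl-CoA synthetase and was covered to 71.8%. The midpoints of these 2 peaks lay in Smurf and Acsl. COX5BL starts 122 bp after the end of its parent COX5B and lies wholly within Trmt6. A single 3.05 kb peak (2L 6557801 to 6560850) covered COX5B to 99.9%, COX5BL completely and Trmt6 to 49.8%, and it was the only peak over more than 1 of the 88 genes. COX7AL was touched over 10 bp (1.56%) by the edge of a peak in DppIII, of which 55.5% was covered. COX7AL was the sole paralogue with covered sequence that belongs to no other gene. Its parent COX7A lies on the same arm, and the peak nearest to COX7A, 3258 bp away, is the one that touched COX7AL. Not every nested paralogue had a peak. ND-49L lies within Fur1, which had 23 peaks and was covered to 13.2%, and ND-51L2 within Trpm, covered to 0.537%, yet neither paralogue had a peak. The hosts of ATPsynCF6L, SdhAL, UQCR-6.4L, COX6AL and ND-B14.5AL (Con, CG44837, Mipp1, Cyp4aa1 and CG14459) had no peak at all.

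**Figure D4:**
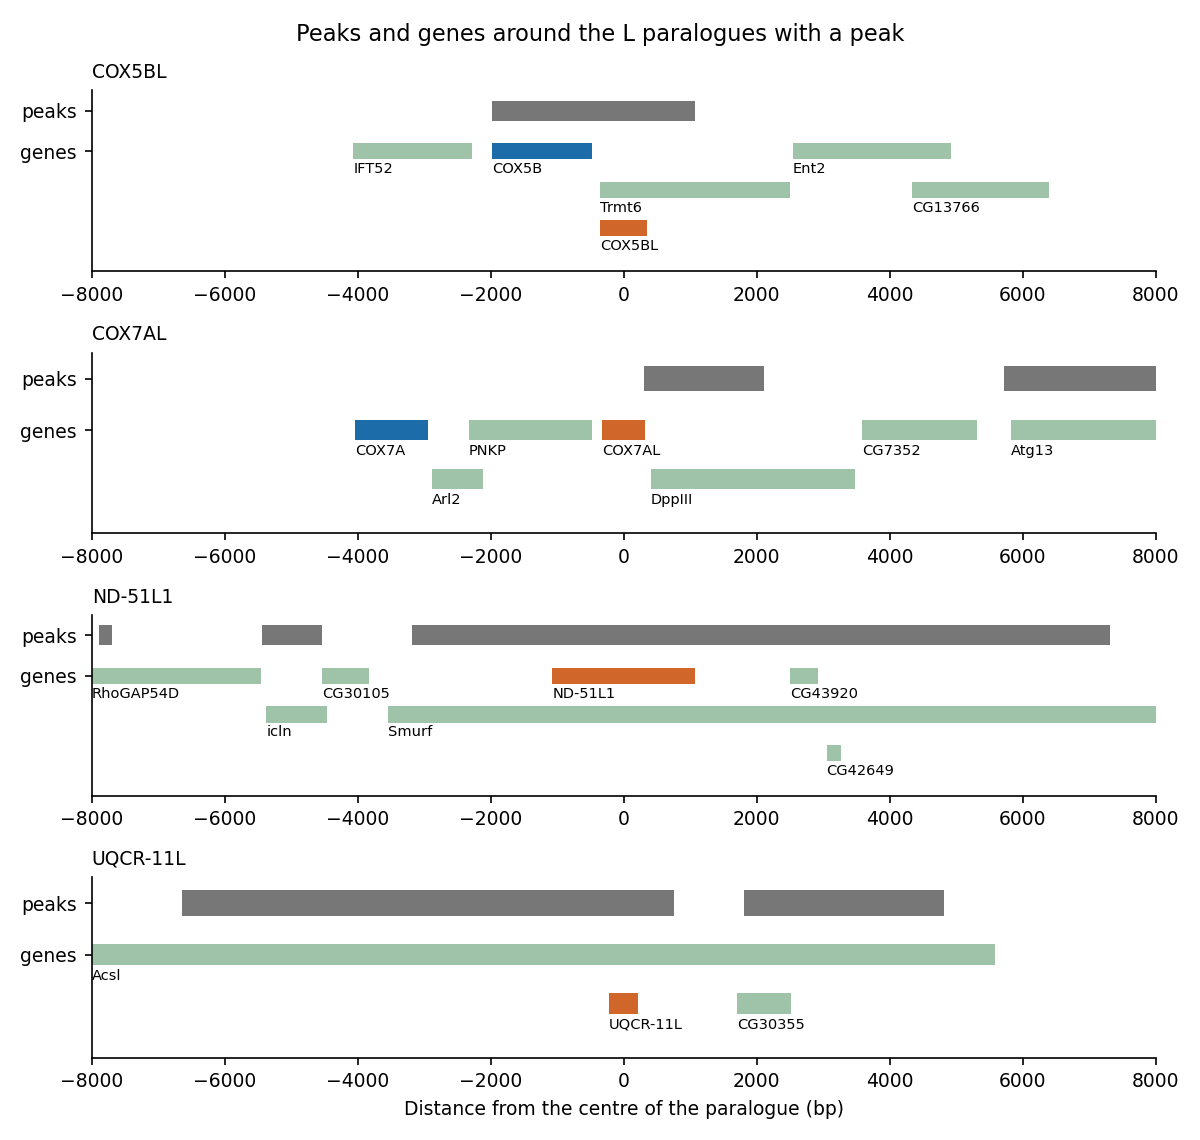
Maps of the 4 paralogues with a peak, each drawn to scale with distance from the centre of the paralogue (bp, horizontal axis). Grey bars are H4K20me1 peaks, orange bars the paralogue, blue bars other respiratory chain genes and green bars further protein-coding genes, cut at the edge of the map. The peaks over ND-51L1 and UQCR-11L lie within Smurf and Acsl, that of COX5BL starts in COX5B, and that of COX7AL lies over DppIII.

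The paralogues are shorter than the other genes of the set and more of them are nested. Their median length was 744 bp, against 1148 bp for the other 64 genes. Within 10 kb of a paralogue lay a median of 3 other protein-coding genes, against 6 for the other 64 genes. A body wholly within other genes was found for 10 of 24 paralogues and for 2 of the other 64 genes. Among genes under 750 bp, 3 of 12 paralogues had a peak (25.0%) and 7 of 10 other respiratory chain genes (70.0%), against 12.0% of all protein-coding genes of that length. Among genes this short, the share in paralogues was therefore not below the background, in contrast to the comparison over all lengths. Of the 12 paralogues of 750 bp or more, ND-51L1 alone had a peak. The share in the other 64 genes did not rise steadily with length. They had a peak in 50% to 85.0% of cases in each of 5 length classes, while the share of all protein-coding genes rose from 12.0% to 53.0% over these classes.

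**Figure D5:**
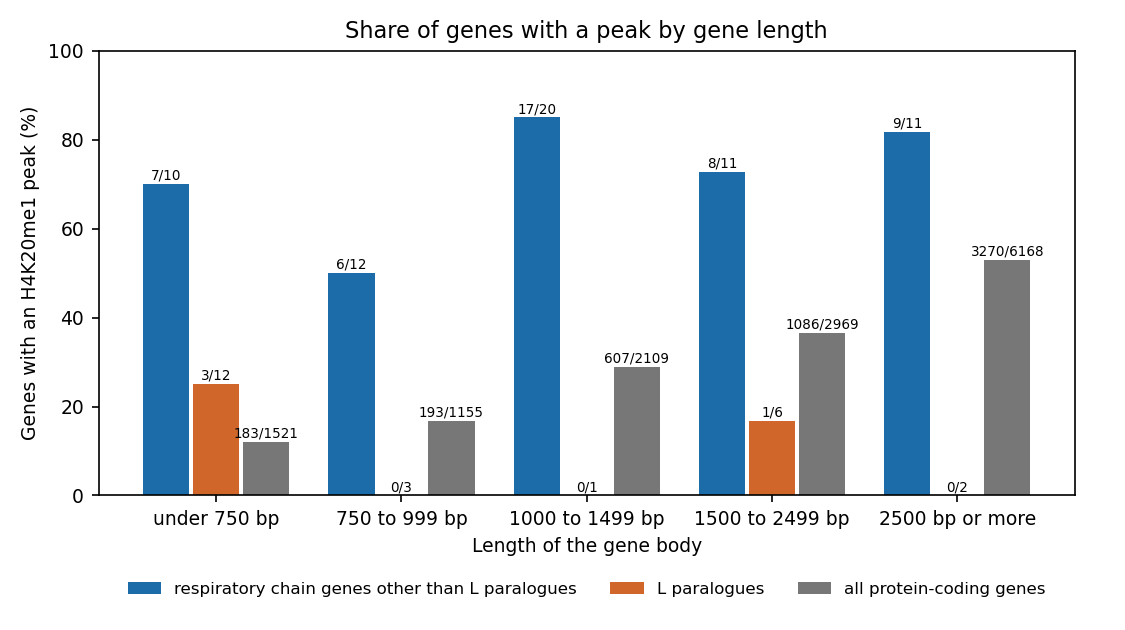
Share of genes with an H4K20me1 peak (%, vertical axis) in 5 classes of gene length, for respiratory chain genes other than L paralogues (blue), L paralogues (orange) and all protein-coding genes (grey). Fractions above the bars are genes with a peak out of genes in the class. The blue bars lie between 50% and 85.0% in every class, and the grey bars rise from 12.0% to 53.0%.

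Genes that share no sequence with another gene were marked as well. Of the 64 genes other than paralogues, 31 overlap no other protein-coding gene, and 25 of the 31 had a peak (80.6%, 95% Wilson interval 63.7 to 90.8), against 32.0% of all protein-coding genes that overlap no other. Of 12 paralogues that overlap no other gene, COX7AL alone had a peak. Genes within 10 kb of the 64 genes had a peak in 243 of 410 cases (59.3%), and those within 10 kb of a paralogue in 39 of 92 cases (42.4%), where a neighbour shared by several genes counts more than once. Of all protein-coding genes 38.3% had a peak, and the share among neighbours of other genes was not computed. The surroundings of the unmarked genes differed too. The nearest peak was a median of 1003 bp from the 17 unmarked genes other than paralogues (range 152 to 106933 bp), and 7962 bp from the 20 unmarked paralogues (range 27 to 123318 bp). The part of neighbours, nesting and length in the difference between paralogues and parents was not tested.

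Peaks over respiratory chain genes varied in width and were mostly shared with other genes. The 53 peaks over the 88 genes had a median width of 2400 bp, against 1100 bp for all 6914 peaks of the list. A wide peak overlaps a given gene more often than a narrow one, so the first median would be the larger for many gene sets. Widths of peaks over other genes of similar length were not compared. Of 50 overlaps between a peak and a gene other than a paralogue, the peak spanned the gene in 12, lay within it in 12 and crossed an end in 26. In 34 of the 47 marked genes (72.3%) every peak also reached another protein-coding gene. Among marked genes under 2500 bp the count was 31 of 38 (81.6%), near the 76.6% of all marked genes of that length. Examples are ATPsynCF6, whose 4.9 kb peak also covered the ribosomal protein gene RpS3 completely, and ND-20, whose 6.6 kb peak had its midpoint in the translation factor gene eIF5 and in CG46312, which overlap. By contrast 7 genes were overlapped by peaks of 300 bp or less alone, namely ATPsynB, COX8, ND-42, ND-MLRQ, SdhB, SdhC and UQCR-Q. Such narrow peaks are common, with a lower quartile of 250 bp over all peaks of the list. The share of such genes among all marked genes was not computed. By chromosome arm the share of the 88 genes with a peak ran from 45.0% on 3L to 64.7% on 2R and was 53.8% on X. On chromosome 4 ND-49 and ATPsynbeta both had a peak. The share of all protein-coding genes was 38.3% over all arms and was not computed arm by arm, so a trait of an arm cannot be told apart.

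Among subunits of the chain that go by other symbols, peaks lay over 6 of 11 genes (54.5%), against 38.3% of all protein-coding genes. The ATP synthase alpha gene blw and levy were covered completely, the Rieske protein gene RFeSP to 93.6% and the cytochrome c1 gene Cyt-c1 to 88.8%. The complex III gene ox was covered to 70.3% and the somatic cytochrome c gene Cyt-c-p to 16.6%. No peak lay over its neighbour Cyt-c-d, which acts in the male germ line, over Cyt-c1L or knon, or over the subunit genes cype and sun. In the tricarboxylic acid cycle, 14 of 21 genes had a peak (66.7%). Most of these genes are 2500 bp or longer, a class in which 53.0% of all protein-coding genes had a peak. Idh3a and Pdhb were covered completely and mAcon1 to 92.8%. The copies mAcon2, Scsalpha2, Fum2, Fum3 and Fum4 had no peak, nor had CG33791 or the malate dehydrogenase gene Mdh2. Assembly factors had a peak in 6 of 10 genes found (60%, against 38.3% of all protein-coding genes), from Bcs1, covered completely, to Scox, covered to 3.17%. In the list of regulators and mitochondrial DNA upkeep, 9 of 13 genes found had a peak (69.2%, against the same 38.3%), where mtTFB1 has the same annotated body as the assembly factor gene Ccdc56 (67.2% covered). There Ets97D, srl and ERR, which encode transcriptional regulators of metabolic genes, were covered to 100%, 95.4% and 94.8%, whereas the DNA polymerase gamma genes PolG1 and PolG2 had none. Mitochondrial ribosomal protein genes had a peak in 37 of 73 cases (50.7%, 95% Wilson interval 39.5 to 61.8), against 38.3% of all protein-coding genes. A peak midpoint was held by 7 of the 73 (9.59%), against 27.9% of all protein-coding genes, which are longer (median 2163 bp against 909 bp). The interval of 39.5 to 61.8 overlaps that of the 88 respiratory chain genes (47.5 to 67.7). It only just meets that of the 64 genes other than paralogues (61.5 to 82.7). The lists were not tested against each other.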

How the data were processed

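H4K20me1 CUT&RUN peaks of Oregon-R wing discs were used as the authors deposited them, as positions and widths in base pairs. Per the labels, the list sets H4K20me1 antibody libraries against libraries without primary antibody. Per the submitters' processing notes the build is dm6, and Bowtie2, SAMtools, bedtools, edgeR and deepTools were used. Their versions and roles, the peak caller, its threshold and any pooling were not given in the sources used here. Positions were read as counted from 1 with both ends included, which reproduces every deposited width, and boundaries lie on a 50 bp grid.

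Gene bodies came from the RefSeq table of the Release 6 assembly. Overlaps, covered bp and 95% Wilson intervals were computed with Python 3.11.15, numpy 2.4.6, pandas 2.3.3 and scipy 1.17.1, after the overlap functions were tested on simulated intervals. A paralogue is a member whose symbol, less its L ending, is a gene of the table. The symbols COX6A, COX6C and ATPsynepsilon were read as levy, cype and sun, the last after the table was seen. ND-MNLL ends in L but has no such parent. The members and lists were chosen with earlier results of these data known. Full values are given for the 4 most covered genes and the 2 longest unmarked genes of each complex, genes covered below 10% and all pairs. Nc73EF was read as Ogdh and ccdc56 as Ccdc56, and 5 of the listed names had no match. Promoter motifs and strand-oriented positions were not analysed here, since the table holds neither sequence nor strand. No p-value was computed.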

Additional observations from a re-analysis of the deposited data

How the results depend on the processing

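No paired analysis was possible because the values come from a single peak list with no value per library, so no replicate could be left out either. Of 71 recomputed values, 53 stayed within the interval of the reported one. With at least 50% of the body covered, the share of marked genes was 34.1% for all members, 35.0% for complex I, 0% for complex II, 33.3% for complex III and 47.6% for the parent genes, against 18.3% of all genes. With the peak midpoint in the body it was 26.1% for all members, 20.0% for complex I, 26.7% for complex V, 0% for paralogues and 42.9% for parents, against 27.9% of all genes. With peaks of at least the median width it was 40.9% for all members, 12.5% for complex II and 47.6% for parents, against 28.4%. Without paralogues it was 73.4% for all members, 80.0% for complex II and 100% for complex V. Complex III stood at 33.3% among its 3 genes that overlap no other. With sequence of no other gene required, a setting added after the data were seen, paralogues stood at 4.17%, against 33.0% of all genes. The 10 of 24 paralogues that lie wholly within other genes could not count as marked there, so that value is partly fixed by the annotation. The set lay above all genes in 13 of 14 settings, the midpoint rule being the exception. Several of the 14 kept the same peak calls and only left out an arm, the assembly factor or the paralogues. Those could hardly differ from the main value in direction, so the tally is not a count of separate checks. Paralogues lay below all genes, and parents above, in 7 of 7, the setting that requires sequence of no other gene included. No setting was matched for gene length, and among genes under 750 bp paralogues stood at 25.0%, against 12.0% of all genes. Depth per library is unknown, which limits every gene without a peak.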
